A study of Mus musculus with 2 samples.

Results

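The keratin genes Krt8, Krt18, Krt17 and Krt42 were followed in fetal male germ cells of the mouse. They are 4 of the 17244 genes listed in the count tables, were selected on their levels, shares and relation to Nanos2 in earlier results from these same data. Their values are therefore a description and not a test. The tables list 14 other keratins. Single-cell RNA was sequenced from male germ cells of CD1 mouse embryos at E12.5 and at E13.5, sorted by flow cytometry for green fluorescence of an Oct4-GFP reporter and prepared with the 10x v2 chemistry, with 1 library per stage. The purpose given by the study's title concerns the removal of faulty germ cell clones by apoptosis in the fetal testis. Both groups share the strain, the sex and the reporter gate, so cells that had lost the reporter were outside the sort. The labels do not give the number of embryos pooled or the build of the reporter allele. With 1 library per stage, the stage and the library cannot be told apart, and every interval below is a 95% interval that covers counting error only.

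Keratins are the intermediate filament proteins of epithelial cells, and a filament forms only from a type I keratin paired with a type II keratin. Krt8 (type II) and Krt18 (type I) form the pair of simple, single-layered epithelia. Krt17 and Krt42 are type I keratins, and Krt17 is best known from hair follicles and from injured or proliferating epidermis. Fetal germ cells are not epithelial, and between these stages male germ cells leave the cell cycle and begin to express Nanos2, an RNA-binding regulator of the male germ cell programme.

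After filtering, 2498 barcodes of the E12.5 library and 2554 of the E13.5 library were germ-like, with a median of 23481 and 21837 UMIs (unique molecular identifiers, each counting 1 captured transcript). The germ-like barcodes held 59673637 and 58596390 UMIs in all. Clusters were named from 10 germ cell markers and from marker lists of other cells. The marker sums below therefore describe the germ-like class and do not test its label. The 10 germ cell markers were all detected in both libraries. They summed to 7158 CPM (counts scaled to a library total of 1e+06 UMIs) in the E12.5 library and to 8232 CPM in the E13.5 library. Dazl, a germ cell RNA-binding protein gene, was at 802 and 1171 CPM, and Pou5f1, the gene behind the sorting reporter, at 500.2 and 700.4 CPM. Markers of other cells summed to less. Endothelial markers were highest, at 99.7 CPM and then 39.1 CPM, of which Pecam1 made up 77.3 and 25.6 CPM, and they were lower at E13.5 as Krt8 and Krt18 were. Interstitial markers summed to 19.3 and 34.9 CPM, nearly all of it Ptch1 (19.0 and 34.4 CPM). The 10 Sertoli cell markers summed to 11.9 and 13.7 CPM, and the 7 non-keratin markers of surface epithelium summed to 16.2 and 7.87 CPM with 3 of the 7 at 0 in each library. Erythroid markers went from 0.285 CPM in the first library to 23.1 CPM in the second. The part of these transcripts in the keratin values was not tested, except where values are given below. The 2 tables shared 24 barcode sequences, 9 of them germ-like. Without these barcodes the log2 ratios of E13.5 over E12.5 were -0.97 for Krt8, -2.64 for Krt18, 7.11 for Krt17 and 3.41 for Krt42, against -0.98, -2.64, 7.12 and 3.40 with them.

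The 4 genes lie in 2 neighbouring pairs. On GRCm38 with the GENCODE M21 annotation, all of them protein-coding, Krt17 spans chr11:100256217-100261029 and Krt42 chr11:100262882-100269871, both on the minus strand with 1852 bases between them. Krt8 (chr15:101996698-102004482, minus strand) and Krt18 (chr15:102028180-102032027, plus strand) are 23697 bases apart. Each count covers the whole gene, and the chemistry reads near the 3′ end of the transcript. The longest reading frames of Krt17 and Krt42 were 80.9% identical, while of the 451 words of 50 bases in the last 500 bases of the transcript, none of those of Krt42 or of Krt8 occurred in another gene. For Krt17, 43 of the 451 words also occurred in Krt14 or Krt16, and for Krt18, 5 also occurred in Gm5200, so a part of those counts could have been split or lost by the counting. Krt16 was listed only at E13.5, with 0.393 CPM.

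The promoters of 3 members are shown because the neighbours of each pair moved in the same direction between the stages. Each runs from 250 bases before to 50 bases after the RefSeq start on GRCm38.p6 and is read along the gene's own strand. The windows are chr11:100269902-100270201 (minus) for Krt42, chr15:102004293-102004592 (minus) for Krt8 and chr15:102027966-102028265 (plus) for Krt18. Capitals mark matches, on either strand, to a TATA box (TATAAA) or to a motif of the AP-2 factors (GCCNNNGGC).
Krt42: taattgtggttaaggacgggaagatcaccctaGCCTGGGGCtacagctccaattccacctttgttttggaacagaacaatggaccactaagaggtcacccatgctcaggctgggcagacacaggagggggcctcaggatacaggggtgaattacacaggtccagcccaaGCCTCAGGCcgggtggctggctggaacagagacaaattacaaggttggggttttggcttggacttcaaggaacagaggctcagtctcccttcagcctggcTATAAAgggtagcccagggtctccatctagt
Krt8: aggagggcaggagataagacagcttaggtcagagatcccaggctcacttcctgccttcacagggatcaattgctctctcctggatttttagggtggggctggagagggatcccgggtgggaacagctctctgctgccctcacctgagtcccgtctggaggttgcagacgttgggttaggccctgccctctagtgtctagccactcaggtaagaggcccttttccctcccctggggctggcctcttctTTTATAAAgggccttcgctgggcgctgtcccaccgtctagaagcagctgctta
Krt18: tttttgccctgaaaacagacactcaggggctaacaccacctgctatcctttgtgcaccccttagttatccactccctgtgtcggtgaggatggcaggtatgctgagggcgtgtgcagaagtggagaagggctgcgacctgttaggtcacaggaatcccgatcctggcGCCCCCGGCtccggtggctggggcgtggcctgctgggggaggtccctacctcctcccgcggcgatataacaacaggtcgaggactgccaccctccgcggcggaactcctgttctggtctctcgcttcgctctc
The Krt42 window held TATAAA at bases 270 to 275, after the RefSeq start, and the AP-2 letters at bases 33 to 41 and 170 to 178. The Krt8 window held TATAAA at bases 250 to 255, overlapped by a match of the other strand at bases 248 to 253. In the Krt18 window only the AP-2 letters were found, at bases 168 to 176. None of the 3 windows held GGGCGG or CACGTG. Of 32851 RefSeq promoters of the same length, 13.6% held TATAAA, 16.6% the AP-2 letters, 35.7% GGGCGG and 7.15% CACGTG. The GENCODE M21 starts of the 3 genes differ from the RefSeq starts. That of Krt42 (base 100269871 of chromosome 11) lies outside the printed window, downstream of the TATAAA letters, and that of Krt8 (base 102004482 of chromosome 15) lies inside it, upstream of them. These matches are letters in a window and not bound sites.

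Between the stages the simple-epithelial pair was lower and the type I neighbours on chromosome 11 were higher. Krt8, the type II partner, had 295 UMIs at E12.5, a level of 4.94 CPM (4.40 to 5.54), and 147 UMIs at E13.5, a level of 2.51 CPM (2.12 to 2.95), which is 1.97-fold lower (1.61 to 2.42). Krt18, its type I partner, had 1602 UMIs or 26.8 CPM (25.5 to 28.2) at E12.5 and 252 UMIs or 4.30 CPM (3.79 to 4.87) at E13.5, which is 6.24-fold lower (5.46 to 7.16). The drop in level was thus larger for Krt18 than for Krt8, with ratio intervals that did not overlap. Krt17 had 19 UMIs or 0.318 CPM (0.192 to 0.497) at E12.5 and 2604 UMIs or 44.4 CPM (42.7 to 46.2) at E13.5, 140-fold higher (89.2 to 232). Krt42 was already detected at E12.5, with 184 UMIs or 3.08 CPM (2.65 to 3.56), and reached 1902 UMIs or 32.5 CPM (31.0 to 34.0) at E13.5, 10.5-fold higher (9.04 to 12.3). The E12.5 levels of Krt17 and Krt42 were both low, and each gene's intervals at the 2 stages did not overlap. In bulk sums such as these, fewer positive cells and less RNA per cell cannot be told apart. The shares of barcodes below do not separate them either, since at these low counts a share follows the mean level and the depth.

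**Figure D1:**
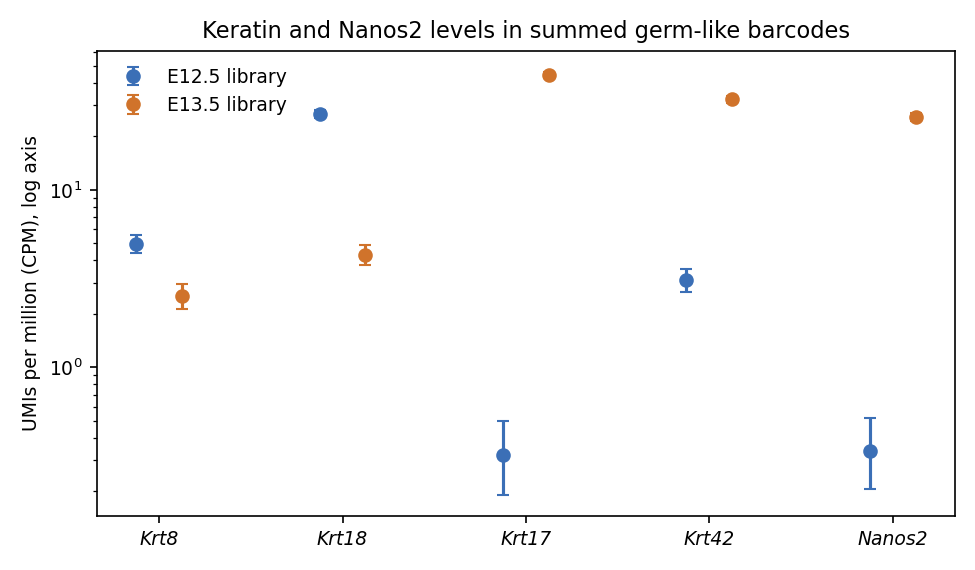
CPM (log axis) of each keratin and of Nanos2 in the summed germ-like barcodes of the E12.5 (blue) and E13.5 (orange) library; bars are 95% Poisson intervals for counting error. Krt8 and Krt18 are lower at E13.5, while Krt17, Krt42 and Nanos2 are higher, with Krt17 going from 0.318 to 44.4 CPM.

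Among 15159 genes with at least 3 UMIs in both libraries, the ratio of Krt17 was the 3rd highest and that of Krt42 the 103rd highest, while Krt18 stood 207th and Krt8 1488th from the lowest. Over those genes 18.5% were at least 1.5-fold higher at E13.5 and 17.5% at least 1.5-fold lower, and 2 members were past that fold in each direction. Among the 6896 genes at a mean of 10 CPM or more over both libraries, 7.21% were higher and 8.6% lower by that fold. Krt17, Krt42 and Krt18 passed this minimum and Krt8, at a mean of 3.73 CPM, did not. The members were picked for their levels, so these shares are background only. Nanos2 went from 20 to 1515 UMIs in the same barcodes, 77.1-fold.

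The make-up of the 4 genes' transcripts turned over. At E12.5 they held 2100 UMIs together, of which Krt18 made up 76.3%, Krt8 14.0%, Krt42 8.76% and Krt17 0.905%. At E13.5 they held 4905 UMIs, of which Krt17 made up 53.1%, Krt42 38.8%, Krt18 5.14% and Krt8 3.0%. Summed over Krt17, Krt42 and Krt18, type I transcripts went from 30.2 to 81.2 CPM, while the level of Krt8, the type II gene among the 4, went from 4.94 to 2.51 CPM.

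The other keratins gave no type II gene that rose to a comparable level. Krt222, a type I-like keratin, went from 17.5 to 31.5 CPM, 1.80-fold higher, and was the 1 other keratin at a mean of 10 CPM. Krt10, a type I keratin of differentiating epidermis, was nearly level at 5.71 and 5.75 CPM. Krt19, a type I keratin of simple epithelia, went from 0.704 to 3.24 CPM (4.61-fold higher), Krt27 from 2.56 to 0.700 CPM (3.66-fold lower), and Krt24 was not in the E12.5 table and had 1.48 CPM at E13.5. Of the type II genes, Krt7 went from 2.71 to 1.33 CPM (2.04-fold lower) and Krt73 from 0.587 to 2.34 CPM (3.99-fold higher). Over all other type I keratins with at least 3 UMIs in both libraries, 2 of 6 were at least 1.5-fold higher and 3 of 6 lower, where 18.5% of all genes were higher and 17.5% lower. Over the type II keratins 2 of 3 were higher and 1 of 3 lower, and none of these reached a mean of 10 CPM.

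Genes that work with keratins moved in both directions, and the counts below are over members at a mean of 10 CPM or more, against the 7.21% higher and 8.6% lower over all genes. Of 6 other intermediate filament genes 1 was at least 1.5-fold higher and 2 were lower, with a median log2 ratio of -0.09 against -0.02 over all genes. Vim, the vimentin gene of mesenchymal cells, was 6.10-fold lower (17.8 to 2.92 CPM), Nefh, a neurofilament gene, was 1.51-fold higher (13.2 to 19.9 CPM), and the most abundant, Lmnb1 of the nuclear lamina, was at 49.4 and 50.8 CPM. Of 5 desmosome and cytolinker genes, whose products tie filaments to junctions and to other filaments, 1 was higher and 1 lower, with a median of -0.01. Tchp, which encodes a keratin-binding protein, was 1.78-fold higher (9.03 to 16.1 CPM), Pkp4 was 1.63-fold lower (32.7 to 20.1 CPM) and the most abundant, Macf1, was at 48.0 and 36.4 CPM. With all members that had at least 3 UMIs in both libraries, 8 of 13 were lower, against 17.5% of genes, and 1 of 13 was higher. Dsp, the desmoplakin gene that anchors keratin at desmosomes, was named after its values were seen and went from 802 to 48 UMIs (13.4 to 0.819 CPM, 16.4-fold lower).

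Of 12 epithelial adhesion genes at a mean of 10 CPM or more 1 was higher and 1 lower by 1.5-fold, with a median of -0.25. The most abundant was Epcam, an adhesion gene also used to mark germ cells, at 379 and 309 CPM. Itga6, an integrin gene, was 1.53-fold higher (9.94 to 15.2 CPM). Of 4 transcriptional regulators linked to keratin genes in other tissues none was higher and 1 was lower, with a median of -0.25. Tfap2c, which encodes the AP-2 gamma factor of early germ cells, was 3.28-fold lower (35.2 to 10.7 CPM), Tead1 was at 24.5 and 25.5 CPM, and Klf5, the most abundant, at 76.0 and 75.3 CPM.

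Shares of positive barcodes were compared after thinning each barcode to 14500 UMIs at random, which left out as too shallow 173 germ-like barcodes of the E12.5 library and 231 of the E13.5 library. A Krt17 UMI was found in 11 of 2325 barcodes at E12.5, or 0.473% (0.236 to 0.845), and in 859 of 2323 at E13.5, or 37.0% (35.0 to 39.0). For Krt42 the shares were 4.0% (3.24 to 4.88) and 32.1% (30.2 to 34.1). Both type I neighbours thus had a UMI in few barcodes at E12.5 and in about 1 in 3 at E13.5. Krt18 was found in 29.2% (27.3 to 31.1) at E12.5 and 5.12% (4.26 to 6.10) at E13.5, and Krt8 in 6.71% (5.73 to 7.80) and 3.53% (2.82 to 4.36). The differences in share were 36.5 percentage points for Krt17, 28.1 for Krt42, -24.0 for Krt18 and -3.18 for Krt8. Unthinned, the share went from 0.761% to 47.1% for Krt17, from 6.77% to 41.9% for Krt42, from 42.0% to 8.42% for Krt18, and from 10.3% to 5.25% for Krt8.

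The number of UMIs in a positive barcode also differed. Like a share, it depends on the mean level at these low counts, so it does not give the RNA per expressing cell. At E12.5 no thinned barcode held more than 1 Krt17 UMI, while at E13.5 492 held 1, 225 held 2, 85 held 3 and 57 held 4 or more, with a maximum of 8. For Krt42 at E13.5, 497 barcodes held 1 UMI, 176 held 2, 52 held 3 and 21 held 4 or more. Krt18 showed the reverse order of stages, with 147 barcodes at 2 UMIs, 31 at 3 and 6 at 4 or more at E12.5, and 11, 2 and 0 at E13.5. Krt8 was a gene of single UMIs, with 1 UMI in 143 of its 156 positive barcodes at the earlier stage and in 79 of 82 at the later one. The variance of Krt17 over the E13.5 barcodes was 1.70 times its mean, against a median of 1.04 for 1879 genes of like mean, and stood at percentile 99.6 among them. Krt42 at E13.5 had 1.42 (percentile 99.2 of 2067 genes) and Krt18 had 1.23 at E12.5 (percentile 98.4) and 1.20 at E13.5 (percentile 98.9). These transcripts were less evenly spread over barcodes than those of most genes at the same level.

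**Figure D2:**
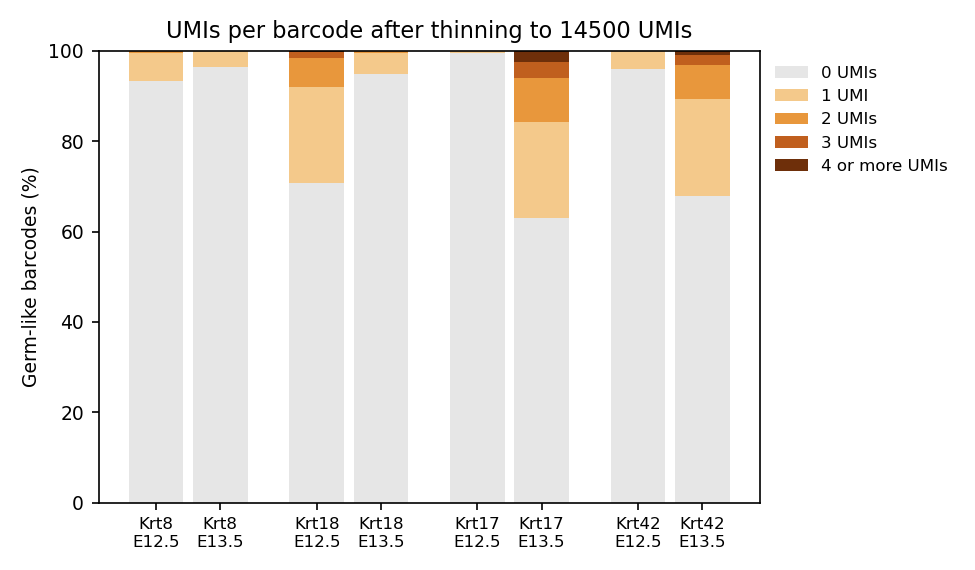
Share of germ-like barcodes (%) with 0, 1, 2, 3 and 4 or more UMIs of each keratin, after thinning every barcode to 14500 UMIs, in 2325 barcodes of the E12.5 and 2323 of the E13.5 library. Krt17 and Krt42 gain barcodes with several UMIs at E13.5, while Krt18 loses them.

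Transcripts from outside the cell were examined in cells that should lack a gene. The E13.5 library held 25 Sertoli-like barcodes (median 10797 UMIs), supporting cells of the testis cords, and before thinning 1 of them, or 4.0% (0.101 to 20.4), had a Krt17 UMI and 0 of 25 a Krt42 or a Nanos2 UMI (up to 13.7%). The germ-like shares were 47.1% and 41.9%, at about 2 times the depth. Thinned to 2000 UMIs, the shares in germ-like barcodes were 9.33% (8.23 to 10.5) for Krt17 and 5.53% (4.67 to 6.49) for Krt42, against 0 of 25 Sertoli-like barcodes for each (up to 13.7%), so no difference was detectable at that depth. At the same depth 5 of 46 low-UMI unnamed barcodes, or 10.9% (3.62 to 23.6), held Krt17. Over both libraries, the low-UMI barcodes had a median of 0.658% of their UMIs in germ markers. They therefore held germ cell transcripts, and whether these came from germ cells or from outside the cell was not tested. Globin genes such as Hbb-bs, and Alas2, led this cluster, so it was mixed. It does not serve as a set of cells known to lack or to express Krt17 or Krt42. As levels over all UMIs, Krt17 was at 3.41 CPM (0.0864 to 19.0) in the Sertoli-like barcodes and 34.5 CPM (17.2 to 61.7) in the low-UMI unnamed ones, against 44.4 CPM in the germ-like ones. Krt42 had no UMI in the Sertoli-like barcodes (up to 12.6 CPM) and was at 6.27 CPM (0.759 to 22.6) in the low-UMI ones, against 32.5 CPM. Krt8 and Krt18 could not be checked in this way, because Sertoli-like barcodes themselves held them, with 44 Krt8 UMIs in 14 barcodes and 21 Krt18 UMIs in 13. With 4 Sertoli-like barcodes at E12.5 the 19 barcodes with a Krt17 UMI there could not be set apart from background. In thinned germ-like barcodes the 10 Sertoli markers summed to 16.8 UMIs per 100 barcodes with Krt18 against 17.6 without at E12.5, and to 15.1 against 20.01 at E13.5. Split by Krt8, these sums were 19.9 against 17.2 at E12.5 and 18.3 against 19.8 at E13.5. Endothelial markers summed to 144.4 UMIs per 100 barcodes with Krt18 against 145.1 without at E12.5, and to 59.7 against 60.2 at E13.5. Split by Krt8, the endothelial sums were 132.1 against 145.8 at E12.5 and 46.3 against 60.7 at E13.5. The non-keratin markers of surface epithelium summed to 22.0 UMIs per 100 barcodes with Krt18 against 23.9 without at E12.5, and to 16.8 against 10.7 at E13.5. At E13.5 markers of the mesonephros summed to 35.3 with Krt18 against 26.5 without, and interstitial markers went the other way, at 40.3 against 51.9. Split by Krt17, the E13.5 interstitial sums were 59.7 with against 46.3 without, and split by Krt42 they were 58.7 against 47.7. Endothelial sums were lower with these 2 genes, at 52.9 against 64.5 for Krt17 and 55.2 against 62.5 for Krt42. Sertoli sums were 17.2 against 21.2 for Krt17 and 20.4 against 19.5 for Krt42. No intervals were computed for these sums, and 119 thinned E13.5 barcodes held Krt18. Over all germ-like barcodes the sums of surface epithelium and mesonephros were mostly Lrrn4 and Bmp7, so each is close to the value of a single gene. Whether these E13.5 sums bear on the remaining Krt18 was not tested.

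Within the E13.5 library Krt17 and Krt42 were found together more often than the product of their shares. Both were present in 411 thinned barcodes against 276 for the product, a ratio of 1.49 (1.35 to 1.64). A Krt42 UMI was found in 47.8% (44.5 to 51.2) of barcodes with Krt17 and in 22.9% (20.8 to 25.1) of those without. At E12.5, 2 barcodes held both and the ratio of 4.55 (0.550 to 16.4) was not informative. The pair Krt8 and Krt18 was together in 65 barcodes at E12.5, a ratio of 1.43 (1.10 to 1.82), with Krt18 in 41.7% (33.8 to 49.8) of barcodes with Krt8 and 28.3% of those without. At E13.5 it was together in 10 barcodes, a ratio of 2.38 (1.14 to 4.38). Over 20 further random draws of the thinning, this ratio ran from 1.22 to 2.51, so its size is poorly fixed. Members of different pairs had intervals that included 1 in every E13.5 combination, such as 0.773 (0.535 to 1.08) for Krt18 and Krt17 and 1.02 (0.695 to 1.45) for Krt8 and Krt17. Counting members per barcode, 63.8% held none of the 4 at E12.5 and 44.0% at E13.5, and 3.44% and 19.0% held exactly 2.

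Krt42 climbed with the Krt17 count. Its share was 22.9% in the 1464 E13.5 barcodes without Krt17, 39.4% in the 492 with 1 Krt17 UMI, 55.1% in the 225 with 2, 62.4% in the 85 with 3 and 70.2% (56.6 to 81.6) in the 57 with 4 or more. Nanos2 went from 20.8% with no Krt17 UMI to 31.9% with 1 and 45.8% with 2. It was at 36.5% (26.3 to 47.6) at 3 and 43.9% (30.7 to 57.6) at 4 or more, too wide to tell a plateau from a climb. As UMIs per 100 barcodes, Nanos2 was at 61.3, 50.6 and 78.9 with 2, 3 and 4 or more. Krt18 was in 5.81% of barcodes without Krt17 and in 0 of the 57 with 4 or more (up to 6.27%), which is not a detectable difference at this depth. Krt8 stayed between 2.67% and 4.71%.

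**Figure D3:**
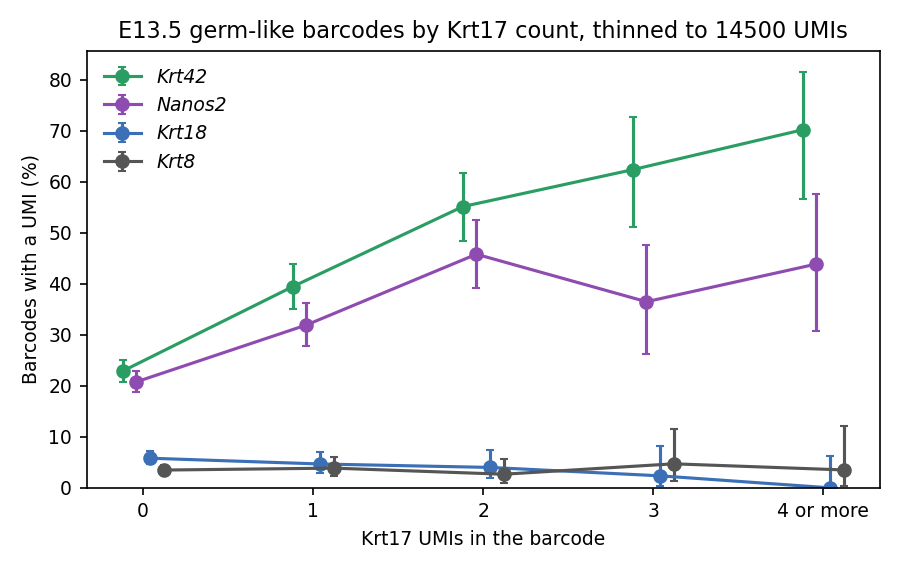
Share of E13.5 germ-like barcodes (%) with a UMI of Krt42, Nanos2, Krt18 or Krt8, by the number of Krt17 UMIs in the barcode, after thinning to 14500 UMIs; bars are exact 95% binomial intervals. Krt42 goes from 22.9% to 70.2%, and Krt18 and Krt8 stay low. Nanos2 goes from 20.8% to 45.8% at 2 Krt17 UMIs, and past that its intervals are wide and overlap.

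The relation to Nanos2 was read in the same thinned E13.5 barcodes, 620 with a Nanos2 UMI and 1703 without. Krt17 stood at 91.1 UMIs per 100 barcodes (83.8 to 99.0) with Nanos2 and 52.3 (48.9 to 55.8) without, 1.74-fold higher (1.57 to 1.94), and was found in 51.0% against 31.9% of barcodes. Krt42 stood at 64.5 and 40.9 UMIs per 100 barcodes, 1.58-fold higher (1.39 to 1.79), and was found in 42.1% against 28.5%. Krt18 (4.68 and 6.17 UMIs per 100 barcodes, ratio 0.759, 0.485 to 1.15) and Krt8 (3.23 and 3.88, ratio 0.832, 0.478 to 1.39) had intervals that included 1. Among 6841 genes at 10 CPM or more, 1.37% were at least 1.5-fold higher in the Nanos2 barcodes and 2.87% lower. Krt17 ranked 30th and Krt42 63rd of them, and since the relation to Nanos2 was among the reasons for choosing the genes, nothing is read from that rank. Over 20 further draws the ratios ran from 1.495 to 1.79 for Krt17 and from 1.43 to 1.70 for Krt42, so both reached or crossed the 1.5-fold line. For Krt18 all of these 20 draws were below 1, from 0.4995 to 0.865, an earlier draw gave 0.986, and the unthinned ratio was 0.677. For Krt8 the 20 draws ran from 0.475 to 1.04. Many barcodes had Krt17 without Nanos2: 316 held both, and of the 859 with Krt17, 36.8% also held Nanos2. At E12.5 Nanos2 was in 13 thinned barcodes, 0 of which held Krt17. The product of the shares gave 0.0615 barcodes with both, so this 0 is not informative, and without thinning 1 barcode held both.

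Other genes split the E13.5 barcodes at least as strongly. In the 730 barcodes with Rhox9, an X-linked homeobox gene found in 2296 of 2325 barcodes at E12.5, Krt17 stood at 27.7 UMIs per 100 barcodes against 78.7 in the 1593 without, 2.84-fold lower (2.45 to 3.31), and Krt42 was 2.50-fold lower (2.12 to 2.96). Krt18 went the other way, 2.25-fold higher (1.58 to 3.20) with Rhox9. Across the 6841 genes 2.49% were at least 1.5-fold lower in Rhox9 barcodes and 2% higher. With Sycp1, a synaptonemal complex gene, Krt17 was 2.55-fold higher (2.14 to 3.07) and Krt42 1.84-fold higher (1.54 to 2.22), where 2.38% of genes were at least 1.5-fold higher and 1.51% lower, and Krt18 was 1.94-fold lower (1.32 to 2.80). Krt8 had intervals that included 1 for all 6 splitting genes at E13.5.

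The remaining splits were weaker. With Kit, the receptor of germ cell survival signals, Krt17 was 1.67-fold lower (1.45 to 1.93) and Krt42 1.56-fold lower (1.33 to 1.84), where 0.643% of genes were lower and 0.336% higher by 1.5-fold. With Mki67, a gene of dividing cells, the ratios were 0.747 (0.673 to 0.829) for Krt17 and 0.829 (0.735 to 0.936) for Krt42, and 2.41% of genes were higher and 1.61% lower by 1.5-fold. With Pmaip1, which encodes the pro-death protein Noxa, they were 1.31 (1.18 to 1.45) and 1.29 (1.15 to 1.46), and Krt18 was 1.80-fold lower (1.24 to 2.67). By that split 0.0146% of genes were higher and 0.0439% lower by 1.5-fold. Krt18 and Krt8 were under 10 CPM at E13.5 and so outside the 6841 genes of these shares. The Krt18 splits at E13.5 rest on 134 UMIs of 1 random draw, and only the split by Nanos2 was drawn again. Over 4 equal bins of barcode depth, shallowest first, Krt17 stood at 61.6, 71.4, 61.4 and 56.1 UMIs per 100 thinned barcodes and Krt42 at 45.2, 55.8, 40.3 and 47.5. Nanos2 moved with depth even after thinning, at 52.2, 45.4, 34.3 and 23.4, and the part of depth in the Nanos2 split was not tested. At E12.5 the split by Sycp1 gave Krt8 a ratio of 1.73 (1.26 to 2.38), while Krt18 was at 1.04 (0.895 to 1.20).

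**Figure D4:**
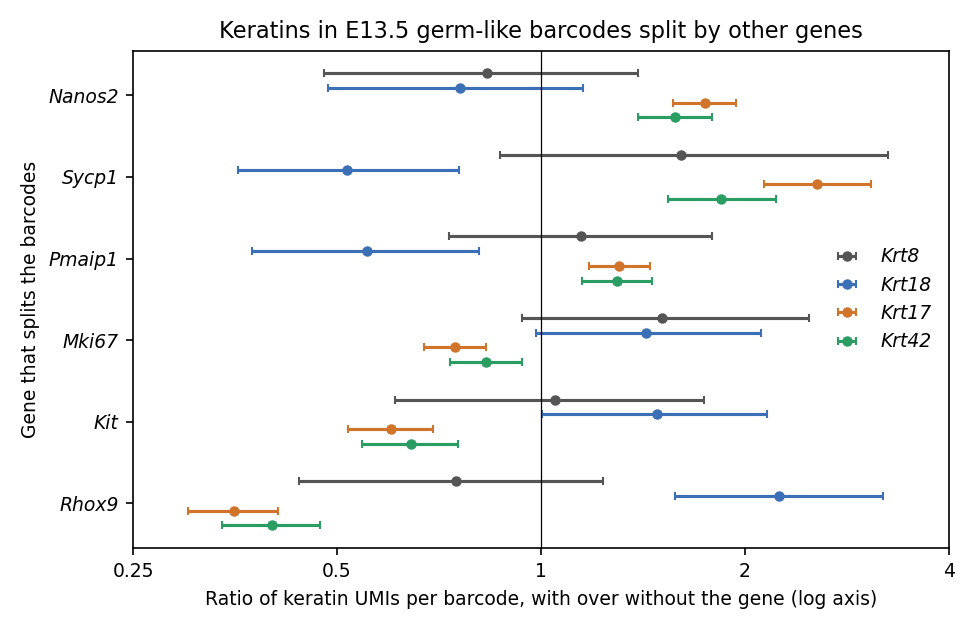
Ratio (log axis) of keratin UMIs per barcode in E13.5 germ-like barcodes with over without a UMI of the gene named at the left, after thinning; bars are exact 95% intervals for counting error and the line marks 1. Krt17 and Krt42 lie on the same side in all 6 splits and Krt18 on the other, with an interval that includes 1 for Nanos2 and Mki67. For Kit the Krt18 interval starts at 1.004. All values are from 1 random draw of the thinning, which left 134 Krt18 UMIs.

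The clusters of germ-like barcodes were formed with these genes among others, so their levels are a description. At E13.5 Krt17 stood at 54.7 CPM in cluster 2 (led by Nanos2), 52.5 in cluster 3 (led by Krt17 itself), 49.1 in cluster 6 and 19.8 in cluster 5, which was led by histone genes. Krt42 had the same order, at 40.5, 35.9, 33.8 and 18.2 CPM. Nanos2 did not, with 57.7 CPM in cluster 2 and 18.3, 11.2 and 9.22 CPM in clusters 3, 6 and 5, so that clusters 3 and 6 combined a high Krt17 level with a low Nanos2 level. Among the E13.5 clusters, cluster 6 had the highest Mki67, at 166 CPM against 21.02 in cluster 2. Krt18 was at 2.30 CPM in cluster 2 and between 4.52 and 6.08 CPM in the others, and at 27.5, 25.3 and 28.1 CPM in the 3 large E12.5 clusters 0, 1 and 4. Within clusters 2, 3, 5 and 6 the ratio of Krt17 with over without Nanos2 was 1.44 (1.21 to 1.70), 1.68 (1.37 to 2.05), 1.502 (0.894 to 2.41) and 1.47 (1.06 to 2.01).

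**Figure D5:**
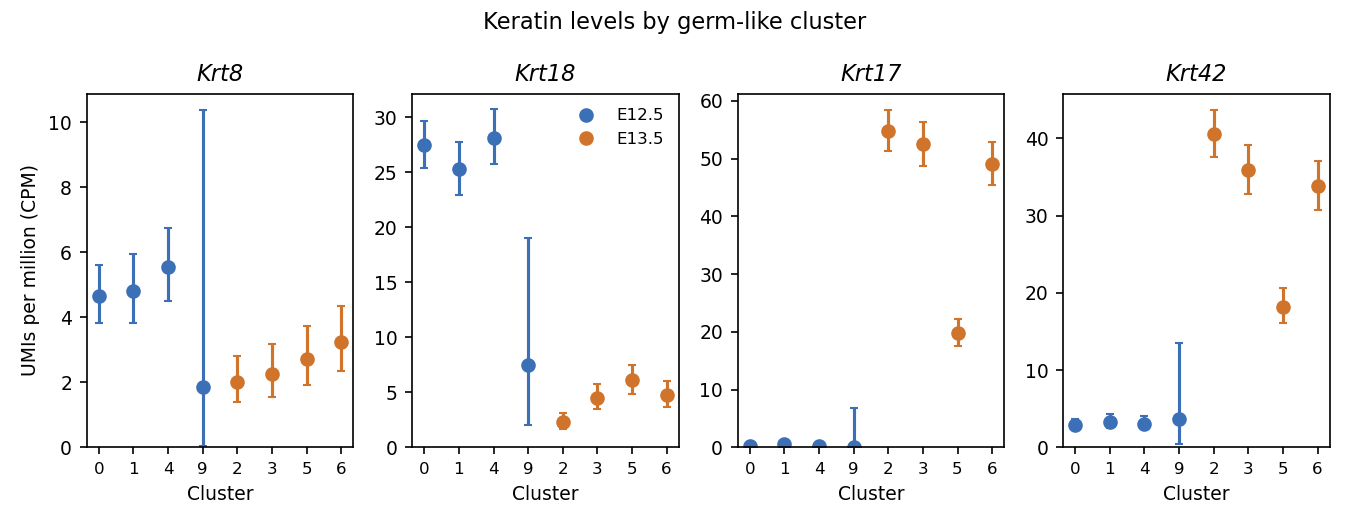
CPM of each keratin in each germ-like cluster of the E12.5 (blue) and E13.5 (orange) library, with 95% Poisson intervals; the vertical scale differs between genes and starts at 0. Krt17 and Krt42 are lowest among the E13.5 clusters in cluster 5, at 19.8 and 18.2 CPM, and Krt18 is high in the E12.5 clusters 0, 1 and 4; cluster 9 holds 25 E12.5 barcodes.

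Likeness between genes was described by Spearman's rho over thinned barcodes of 1 library, which share that library and its depth. Over the 2323 barcodes at E13.5, the genes most like Krt17 among 7645 were Krt42 (rho 0.30), Uchl1 (0.28), a ubiquitin hydrolase gene expressed in spermatogonia, and Sycp1 (0.25), and the least like was Dppa5a (-0.35), a pluripotency gene. For Krt42 they were Krt17 (0.30), Uchl1 (0.24) and Sycp1 (0.18), with Dppa5a (-0.26) the least like. Krt18 had weak values at E13.5, highest for Lefty2 (0.11), Dppa5a (0.11) and Nsmce4a (0.10) and lowest for Sycp1 (-0.09). At E12.5 the sign for Dppa5a was the opposite, and it was the gene least like Krt18 (-0.097). The pair Krt8 and Krt18 reached 0.08 at E12.5 and 0.06 at E13.5. In counts this sparse such values are no finding, and the same holds for Krt8 at both stages and for Krt17, Krt18 and Krt42 at E12.5, where no gene went past 0.10 in either direction.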

How the data were processed

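The authors deposited 1 table of raw UMI counts per library, genes by barcodes. Reads were handled with Cell Ranger on mm10/GRCm38, per the submitters' processing notes; its version and gene annotation are not given in the sources used here. Barcodes with at least 500 genes and under 10% mitochondrial UMIs were kept (2621 of 2847 and 2670 of 2992) and clustered (Leiden, resolution 0.5, 15 neighbours on 30 components of 2000 variable genes) in scanpy 1.11.5. Clusters were named from marker lists. From the germ-like class, 3 and 1 barcodes with macrophage or erythroid markers at 0.5% of UMIs or more were left out. Markers of the other somatic cells were not screened barcode by barcode. Scrublet called 65 and 27 germ-like barcodes as doublets, which were kept and removed only as an alternative. UMIs were summed over barcodes and scaled to CPM. Levels have exact Poisson, ratios exact conditional binomial and shares Clopper-Pearson intervals (scipy 1.17.1). PCR, capture and animals add error these do not hold. The interval, ratio and thinning functions were tested on simulated data. The members and gene lists were chosen with earlier results of these data known. Named genes were the members, Nanos2, other keratins at 1 CPM or more, the most abundant and the extreme members of each list (mean of 10 CPM or more), the 3 most and the 1 least like genes by rho (those of weak rho are left unnamed in part), and the splitting genes; 1 gene that this rule picks is not reported here. Alternatives covered scaling (TMM, edgeR 4.0.16), denominator, filters, doublets, germ class, weights, thinning depth and draw. RefSeq promoters matched 3 of the 4 members; Krt17 was not matched.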

Additional observations from a re-analysis of the deposited data

Results flagged for a closer look

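Keratin UMIs were also found in low-UMI unnamed barcodes and in barcodes that failed the filters, in counts above the 3 that a count of 0 allows. Krt17 and Krt42 in the low-UMI barcodes of E13.5 were set beside the germ-like ones above. No comparison used the rest of these UMIs. In the 116 low-UMI barcodes of E12.5, left unnamed, Krt8 had 12 UMIs and Krt18 had 8. In the 90 such barcodes of E13.5, Krt8 had 13 UMIs, Krt17 had 11 and Krt18 had 44. The 44 Krt18 UMIs lay in 5 barcodes that held 17, 13, 7, 6 and 1 of them, among 10201, 9054, 11055, 6326 and 2691 UMIs in all, with germ markers at 0 to 0.0294% of UMIs. In the 226 barcodes of E12.5 that failed the filters, Krt18 had 7 UMIs, and in the 322 of E13.5, Krt17 had 21 and Krt42 had 10. The source of these UMIs was not tested.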

How the results depend on the processing

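Of 124 alternative values, 100 stayed within the counting interval or within 1.5 times the count, 23 moved and 1 reversed. All 28 alternative levels stayed: from -1.06 to -0.83 (log2) for Krt8, -2.72 to -2.57 for Krt18, 6.98 to 7.17 for Krt17 and 3.30 to 3.44 for Krt42. Thinned to 2000 UMIs, the differences in share for Krt8, Krt18, Krt17 and Krt42 were -0.213, -4.55, 9.25 and 4.93 points; without thinning they were -5.08, -33.5, 46.3 and 35.1, as a share rises with depth. At 2000 UMIs the co-detection ratio of Krt8 and Krt18 was 3.01 at E12.5 (3 barcodes) and 10.1 at E13.5 (1 barcode); that of Krt17 and Krt42 was 0 at E12.5 (no barcode), the value that reversed, and 1.29 at E13.5. With 2 or more Nanos2 UMIs against none, the Krt17 ratio was 1.98. With 3 UMIs in both libraries as the minimum, the numbers higher and lower became 2 and 3 for type I and 2 and 1 for type II keratins, 3 and 6 for other intermediate filaments, 3 and 4 for epithelial adhesion, and 1 and 3 for regulators, and 8 desmosome and cytolinker genes were lower; more genes were tested. The medians of 20 further draws and the values without shared barcodes, both chosen after seeing the data, stayed. In those draws the Krt17 share difference ran from 36.9 to 38.2 points, above the 36.5 reported. No paired analysis was possible because each stage has 1 library. Depth limits Krt17 at E12.5 (19 UMIs) and the co-detection of Krt8 and Krt18 at E13.5.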
